A study of Mus musculus with 2 samples.

Results

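Solute carriers are the membrane proteins that move amino acids, sugars, nucleosides, ions, metals and vitamins into and out of cells and their organelles. The 90 genes described here are the protein-coding members of this superfamily that were measured with at least 400 reads over 2 libraries of sorted mouse retinal microglia. They were chosen from the 13549 genes of the deposited table by name (Slc, a family number, the letter a and a member number), so the Slc35 subfamilies with other letters are not among them. The 38 mitochondrial carriers of family Slc25 and 9 genes (Slc2a1, Slc2a3, Slc2a5, Slc16a1, Slc16a3, Slc40a1, Slc48a1, Slc11a1 and Slc1a3) were left out by the rule. Of the 149 remaining genes, 59 had fewer than 400 reads, and 28 of these had 0 reads in either library. Reads over both libraries chose the 90 genes, and none of them had 0 reads in a library. The name pattern also took in 3 genes that encode no transporter: Slc4a1ap and Slc9a3r1, an adaptor and a scaffold protein, and Slc7a6os, which lies opposite Slc7a6.

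Both groups were microglia from retinas of CD11c-Cre-gfp;Rosa-TDTom mice at postnatal day 5. CD11c, encoded by Itgax, is an integrin subunit whose promoter drives Cre and GFP in this line, and Cre switches on the TdTomato reporter permanently. Cd11c-active cells carried GFP and TdTomato and thus used the promoter when sorted (4041 cells), whereas Cd11c-lineage cells carried TdTomato alone (5441 cells). The cells came from 8 retinas, with 4 female and 4 male, and each group gave 1 library. There is therefore no replicate check, and the differences below are between 2 libraries, not between conditions.

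Transporters of these classes do different work in a macrophage. System L and cationic amino acid carriers at the plasma membrane supply protein synthesis and mTORC1 signalling, and many of them work as a pair of a heavy and a light chain. Carriers in the lysosomal membrane release the amino acids, nucleosides and sugars of digested material. Zinc is moved out of the cytosol by the Slc30 family and into it by the Slc39 family, and cation and chloride cotransporters set cell volume.

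The Cd11c-active library held 12943998 reads and the Cd11c-lineage library 13402625. Levels are CPM, reads scaled to a common library total, with library sizes corrected by TMM factors, and ratios are Cd11c-active over Cd11c-lineage on the log2 scale. Each ratio has a 95% counting interval, and a widened 95% interval that divides the reads by the overdispersion, the variance of the log2 ratio over its counting variance in all genes with a like read total (86.3 from 400 to under 800 reads, 172 from 6400 reads). The widened interval takes the spread between genes as error. All 10 microglial markers were present in both libraries, at summed levels of 22350 CPM (Cd11c-active) and 21066 CPM (Cd11c-lineage), and 0 of them were 2-fold apart. All 8 endothelial markers were higher in Cd11c-active (645.8 against 73.7 CPM summed), and 5 of them were at 0 reads in Cd11c-lineage. The 5 measured pericyte markers summed to 61.8 and 2.21 CPM in Cd11c-active and Cd11c-lineage, with 4 higher and 1 lower. The 10 measured retinal neuron and photoreceptor markers summed to 144.7 and 280.6 CPM, with 5 at least 2-fold lower in Cd11c-active and 1 higher. The 5 measured border macrophage markers summed to 21.2 and 130.7 CPM, and 4 of them were at 0 reads in Cd11c-active. The 4 measured monocyte and neutrophil markers summed to 374.3 and 163.9 CPM, with 2 higher and 2 lower. Of these, Fn1 held 98.0% of the reads (4586 and 2197). The 4 measured Muller glia and astrocyte markers summed to 2266 and 2416 CPM, with 2 higher and 1 lower. In sorted bulk material, fewer cells of a type and less RNA per cell cannot be told apart.

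The promoters of 67 of the 90 genes are held in the RefSeq table used here (build GRCm38.p6, which is not the build of the counts, GRCm39). The bases before the start of transcription are shown for the genes at both ends of the range of ratios, for the zinc exporter Slc30a1 and for Slc49a4, which encodes a lysosomal membrane protein. They read 5′ to 3′ on the gene's strand, and capitals mark a match to the E-box CACGTG (a palindrome, found on both strands) or the metal response element TGCACNC on either strand.
Slc7a1, chr5:148399905-148400154, minus strand: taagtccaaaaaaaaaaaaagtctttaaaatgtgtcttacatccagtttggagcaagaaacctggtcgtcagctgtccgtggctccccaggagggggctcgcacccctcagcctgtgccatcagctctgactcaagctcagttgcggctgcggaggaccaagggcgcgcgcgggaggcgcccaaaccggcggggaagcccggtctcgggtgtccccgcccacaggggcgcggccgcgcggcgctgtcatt
Slc49a4, chr16:35769371-35769620, minus strand: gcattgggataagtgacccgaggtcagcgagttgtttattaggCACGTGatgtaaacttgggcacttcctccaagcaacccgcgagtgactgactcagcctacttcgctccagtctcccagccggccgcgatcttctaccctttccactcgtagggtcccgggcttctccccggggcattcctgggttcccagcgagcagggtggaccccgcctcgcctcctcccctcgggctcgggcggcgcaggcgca
Slc30a1, chr1:191906531-191906780, plus strand: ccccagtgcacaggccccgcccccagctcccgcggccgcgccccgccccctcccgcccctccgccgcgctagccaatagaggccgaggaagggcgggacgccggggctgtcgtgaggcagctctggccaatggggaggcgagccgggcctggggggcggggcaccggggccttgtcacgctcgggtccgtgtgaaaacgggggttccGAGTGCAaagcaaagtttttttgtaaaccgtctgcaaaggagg
Slc39a11, chr11:113565816-113566065, minus strand: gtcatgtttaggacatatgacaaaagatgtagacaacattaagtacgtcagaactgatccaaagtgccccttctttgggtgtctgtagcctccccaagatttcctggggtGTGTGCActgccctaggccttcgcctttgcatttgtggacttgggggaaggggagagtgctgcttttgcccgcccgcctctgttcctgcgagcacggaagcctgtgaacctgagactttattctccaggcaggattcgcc
The Slc49a4 window held CACGTG from base -207 before the start. The Slc30a1 and Slc39a11 windows held TGCACNC on the opposite strand, from bases -43 and -140. Slc39a11 and Slc7a1 each had a further start in the table, whose windows are not printed. In the bases before these further starts, neither gene had a match to a motif searched. The further Slc39a11 start lies upstream of the printed one on the gene's strand, so the TGCACNC match belongs to the downstream start only. The ATF4 element TGATGCAA, the third motif searched, was in none of the 4 printed windows. Among the 67 members with a window it was found at Slc7a7 alone. Slc7a5 had no window in the table and was not searched. Over all 27025 genes of the table, 8.09% had CACGTG, 14.2% TGCACNC and 1.03% TGATGCAA in a window reaching from 250 bases before to 50 after the start. Of the 67 members with a window, 14 had CACGTG (20.9%), 15 TGCACNC (22.4%) and 1 TGATGCAA (1.49%). The members were chosen by read total and the genes of the table were not, and the difference was not tested. A match is a description of the letters and not of a bound site. In the annotation of that build, the last 14 bases of the Slc30a1 window lie in an exon of Slc30a1, and the other 3 windows overlap no exon.

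Of the 90 genes, 76 were less than 2-fold apart between the libraries. The median log2 ratio was 0.16, against 0.01 for the 7281 genes with at least 400 reads, and 54 members had a ratio above 0 and 36 below. With scaling to library totals the median of the members was 0.02, with 47 above 0 and 43 below, and that of the 7281 genes was -0.13. At least 2-fold higher in Cd11c-active were 8 members, and 6 were at least 2-fold lower. These 14 are 15.6% of the members, whereas 19.3% of all genes with at least 400 reads were 2-fold apart, 11.1% higher and 8.23% lower. The share of members that were 2-fold apart was thus not above that of other genes of such depth. With scaling to library totals the balance turned, to 8 members higher and 9 lower, against 9.02% of all such genes higher and 10.8% lower. The 3 members added were Slc39a7 (-1.07), Slc27a4 (-1.11) and Slc10a7 (-1.08), and the authors' deposited log2 fold changes gave the same counts of 8 and 9.

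Distances of 2-fold were mostly seen at low read totals, in members and in other genes alike. From 400 to under 800 reads, 10 of 25 members were 2-fold apart (40.0%, against 39.2% of all genes there). From 800 to under 1600 reads it was 3 of 27 (11.1% against 21.7%), and from 1600 to under 3200 reads 0 of 18 (against 8.94%). Above this, Slc7a5 was the only one of the 7 members with 3200 to under 6400 reads that was 2-fold apart (14.3% against 3.28%), and 0 of the 13 members with more reads were 2-fold apart (1.69%). The members nearest above the minimum were Slc1a5 with 411 reads, Slc6a8 with 414 and Slc43a3 with 441. Just under it lay Slc19a2 with 388 reads and Slc37a3 with 373.

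**Figure D1:**
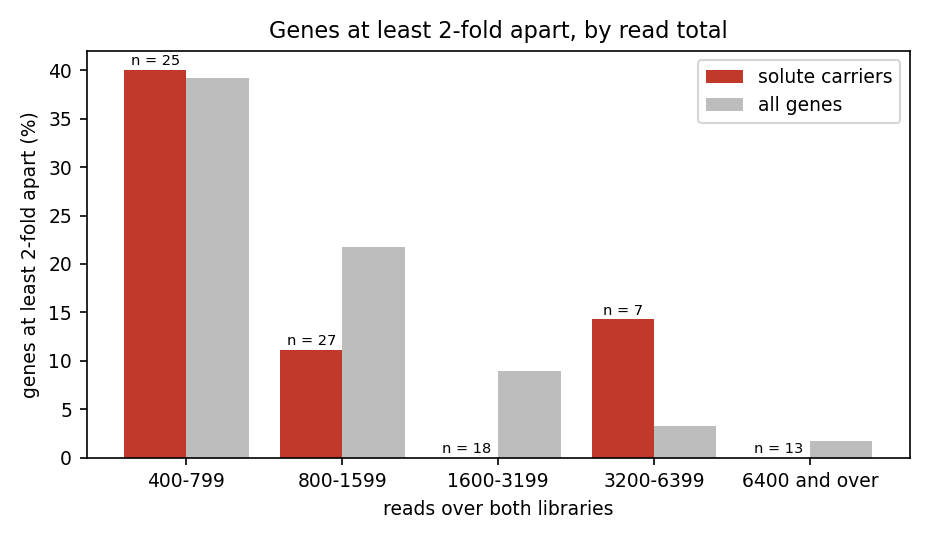
Share of genes at least 2-fold apart between the libraries (y axis, percent) by reads over both libraries (x axis), for the solute carriers (red, with their number) and for all genes (grey). The share falls with read total in all genes, and the members are close to it in the lowest range (40.0% and 39.2%).

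With TMM scaling and the minimum of 400 reads, members 2-fold apart lay on one side of 0 within each substrate class that had any, and the difference between classes was not tested. Of the 22 genes of the amino acid class, 4 were at least 2-fold higher in Cd11c-active (18.2%) and 0 lower. Of the 39 genes of the ion and metal class, 0 were higher and 6 lower (15.4%). Of the 14 genes for sugars and nucleosides none was 2-fold apart in either direction. The 15 others, which carry vitamins, lipids, choline, carboxylates or unknown substrates, had 4 higher (26.7%) and 0 lower. Of all genes with at least 400 reads 11.1% were higher and 8.23% lower, and from 400 to under 800 reads, where 10 of the 14 members lie, 39.2% were 2-fold apart. This did not hold under every alternative. With scaling to library totals the others had 4 higher and 2 lower. At a minimum of 200 reads the amino acid class had 6 higher and 1 lower and the ion and metal class 1 and 7, and with no minimum the amino acid class had 9 and 9. The median log2 ratios were 0.36 for amino acids, -0.11 for ions and metals, 0.10 for sugars and nucleosides and 0.41 for the others. With scaling to library totals they were 0.22, -0.25, -0.03 and 0.27 in the same order, where the median of all genes with at least 400 reads was -0.13. At a minimum of 200 reads the sugar and nucleoside median was -0.13. The ion and metal median was 0.05 after removal of a trend with transcript length and GC content. At a minimum of 800 reads the median of the others was 0.17. With no minimum it was 0.66, and that of the amino acid class 0.05. The widened interval lay above 0 for 4 of the 90 members, namely Slc7a5, Slc7a1, Slc3a2 and Slc44a2, and below 0 for none. Among all genes with at least 400 reads it excluded 0 in 3.13%, of which 2.50% were above 0 and 0.632% below. For Slc7a1, Slc3a2 and Slc44a2 it included 0 with scaling to library totals, which left Slc7a5 as the only member above 0 and put Slc12a2 below 0. The 2.50% and 0.632% are for TMM scaling, and the shares of all genes with library totals were not computed.

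**Figure D2:**
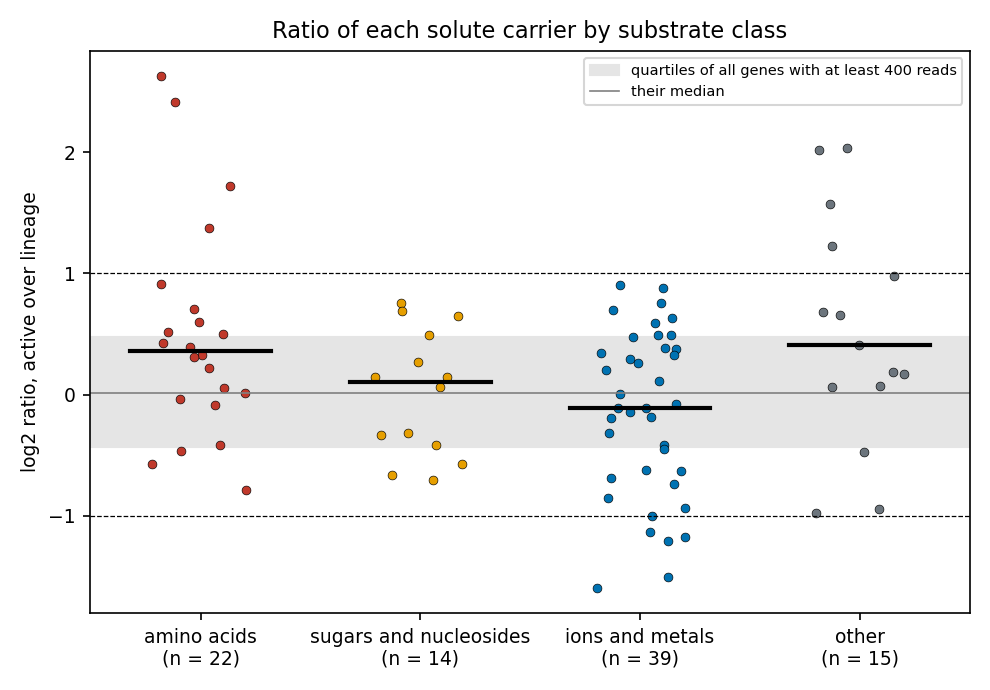
Log2 ratio of Cd11c-active over Cd11c-lineage (y axis) for each of the 90 genes by substrate class (x axis, points spread sideways at random); black bars are class medians, dashed lines mark 2-fold, and the grey band runs between the quartiles of all genes with at least 400 reads. The 4 amino acid and 4 other genes beyond 2-fold lie above, and the 6 ion and metal genes lie below.

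Amino acid carriers at the plasma membrane held the highest ratios of the 90 genes. Slc7a1 (CAT1), which takes up arginine and lysine, gave 675 Cd11c-active and 124 Cd11c-lineage reads (54.7 and 8.82 CPM). Its log2 ratio was 2.63, with a counting interval of 2.35 to 2.92 and a widened interval of 0.04 to 6.76. Slc7a5 (LAT1), the light chain that exchanges large neutral amino acids such as leucine, gave 3058 and 653 reads (247.7 and 46.5 CPM). Its log2 ratio was 2.41 (widened 1.13 to 3.96), higher than 99.4% of the 500 genes nearest to it in reads. The authors' deposited table gives log2 fold changes of 2.49 for Slc7a1 and 2.28 for Slc7a5. LAT1 and CAT1 are also carriers of endothelial cells in vessels of the nervous system. The endothelial markers, all 8 higher in Cd11c-active, moved in the same direction as these 2 genes, and their part in the result was not tested.

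Slc3a2 (4F2hc or CD98), the heavy chain that brings LAT1 and other light chains to the cell surface, gave 5518 Cd11c-active and 3340 Cd11c-lineage reads. Its log2 ratio was 0.91 (widened 0.05 to 1.80, and -0.08 to 1.67 with scaling to library totals). It was thus under 2-fold, but higher than 98.2% of the 500 genes nearest in reads. The other light chains had ratios near or below 0. Slc7a8 (LAT2), a further neutral amino acid exchanger, had 6268 and 7559 reads with a ratio of -0.08 (widened -0.76 to 0.58). Slc7a7 (y+LAT1), which exchanges cationic for neutral amino acids, had 1394 and 1528 reads with a ratio of 0.05, which was -0.08 with scaling to library totals. Slc7a6 (y+LAT2) had 376 and 738 reads with a ratio of -0.79 (widened -2.88 to 1.05). Its opposite-strand neighbour Slc7a6os had 250 and 424 reads with a ratio of -0.57, and reads of the pair could be shared where counting did not use strand. Slc7a11, the cystine exchanger, was under the minimum with 137 and 172 reads.

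Per length of the longest transcript, the light chains stood in different proportions in the 2 libraries. In RPKM, which is CPM per kilobase, Slc3a2 was at 159 (Cd11c-active) and 84.5 (Cd11c-lineage). The 4 light chains among the members summed to 252 and 207 RPKM. Slc7a5 took 27.9% of the light chain sum in Cd11c-active against 6.39%. Slc7a8 took 49.2% and 63.7%, Slc7a7 19.6% and 23.1%, and Slc7a6 3.22% and 6.78%. These are shares of a sum that Slc7a5 raised: the levels of Slc7a8 were 124 and 132 RPKM and those of Slc7a7 49.6 and 47.7 RPKM. Slc7a8 was the most abundant light chain in both libraries.

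**Figure D3:**
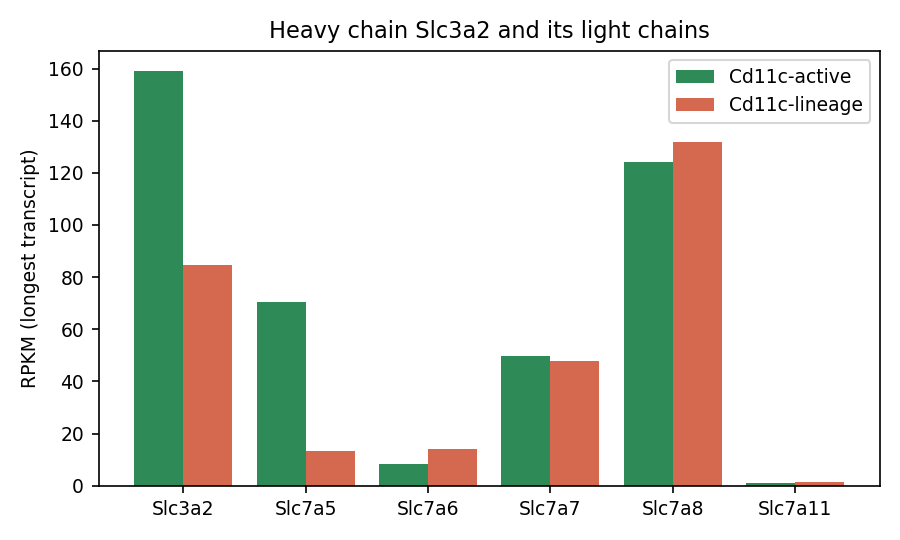
Level per transcript length (RPKM, y axis) of the heavy chain Slc3a2 and its light chains (x axis) in Cd11c-active (green) and Cd11c-lineage (orange); bars are single libraries and carry no error bars. Slc3a2 and Slc7a5 are higher in Cd11c-active (159 and 84.5 RPKM for Slc3a2), and Slc7a8 is the tallest light chain in both.

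The remaining amino acid genes beyond 2-fold rested on few reads. Slc6a8, the creatine transporter grouped here by its family, had 308 and 106 reads with a ratio of 1.72 (widened -1.55 to 6.57). Slc1a5 (ASCT2), a glutamine and neutral amino acid exchanger, had 286 and 125 reads with a ratio of 1.38 (widened -1.85 to 5.72). Both widened intervals included 0.

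The abundant members of the class other than Slc7a5 were less than 2-fold apart. Slc6a6, the taurine transporter and the gene with the most reads of the class, had 9147 and 7742 reads with a ratio of 0.43 (widened -0.17 to 1.03). Slc43a2 (LAT4), a neutral amino acid uniporter, had 5858 and 5390 reads with a ratio of 0.31. The glutamine carriers Slc38a1 and Slc38a2 had ratios of -0.03 and -0.46, the aromatic amino acid carrier Slc16a10 -0.41, and Slc38a10 0.50. With all 22 genes summed, the class gave 57986 and 51616 reads, which is 0.35 on the log2 scale (0.34 to 0.37 from counting) and 0.34 without Slc6a6. Scaling moved this sum by more than its counting interval, to 0.22 with library totals. Here 16 of the 22 genes had a ratio above 0, and 14 with scaling to library totals.

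Carriers of the lysosomal membrane, a group formed from textbook roles after the values were seen, had a median ratio of 0.27, with 9 of 10 above 0 and 1 beyond 2-fold. Of the 7281 genes with at least 400 reads, 3689 were above 0, 19.3% were beyond 2-fold and the median was 0.01. With scaling to library totals the median of the group was 0.14 and 7 of 10 were above 0, and the median of the 7281 genes was -0.13. The peptide and histidine carriers Slc15a3 and Slc15a4 were at 0.52 and 0.22. Slc15a3 had 5863 and 4664 reads. The proton-coupled amino acid carrier Slc36a1 was at 0.60, and its relative Slc36a4, which was not counted in the group, at 0.71. Slc2a6, given below with the hexose carriers at -0.34, was not counted in it either. The glutamine and asparagine carrier Slc38a7 was at 0.33, the arginine sensor of mTORC1 Slc38a9 at 0.39 and the cationic amino acid exporter Slc66a1 at 0.01 (-0.12 with scaling to library totals). The sialic acid exporter Slc17a5 was at 0.15 and Slc46a3 at 0.07 (-0.06 with scaling to library totals). Below 0 under both scalings was Slc29a3 (ENT3), the lysosomal nucleoside exporter, with 4993 and 7568 reads with a ratio of -0.41 (widened -1.14 to 0.29). Slc49a4, the member of the group beyond 2-fold, had 393 and 110 reads with a ratio of 2.02 (widened -1.0 to 6.67).

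Sugar and nucleoside carriers lay on both sides of 0, with 8 ratios above and 6 below (7 and 7 with scaling to library totals). Slc29a3 held 40.5% of the reads of the class. For the sum of the class the ratio was -0.22 (-0.25 to -0.19 from counting), and -0.09 without it. The sum with all 14 genes was at -0.35 with scaling to library totals. Slc37a2, a sugar phosphate exchanger abundant in macrophages, had 2311 and 3905 reads with a ratio of -0.57 (widened -1.41 to 0.24). The plasma membrane nucleoside carrier Slc29a1 (ENT1) had 700 and 661 reads with a ratio of 0.27, and the purine nucleobase carrier Slc43a3 had 244 and 197 reads with a ratio of 0.49.

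Among facilitative hexose carriers, the urate transporter Slc2a9 had 436 and 786 reads with a ratio of -0.66, Slc2a6 was at -0.34 and Slc2a8 at 0.06 (-0.07 with scaling to library totals). The 4 Slc35a genes, relatives of the Golgi nucleotide sugar carriers, split evenly. Slc35a5 had 796 and 537 reads (ratio 0.75) and Slc35a4 947 and 669 (0.69), while Slc35a2, the UDP-galactose carrier, had 179 and 333 (-0.71). Slc35a3, the UDP-N-acetylglucosamine carrier, was at -0.31. After removal of a trend with transcript length and GC content, Slc35a5 passed 2-fold (1.03). The inositol carrier Slc5a3 was at 0.65 and Slc45a4, with 956 and 984 reads, at 0.14.

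**Figure D4:**
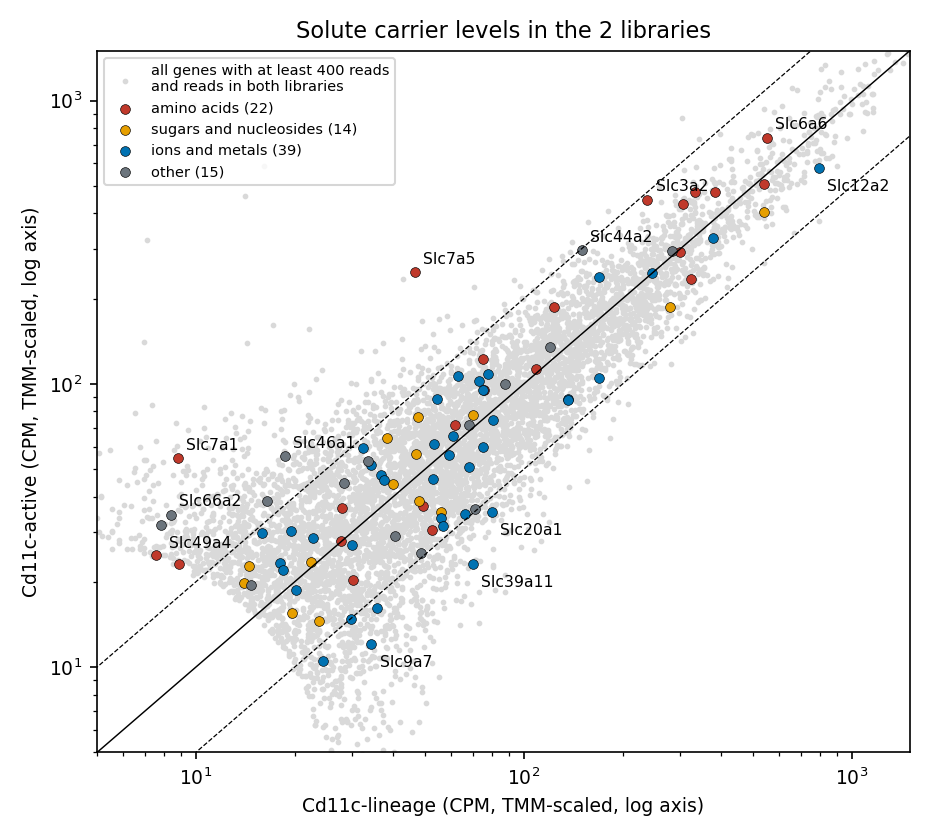
Level of each of the 90 genes in Cd11c-active (y axis) against Cd11c-lineage (x axis), in TMM-scaled CPM on log axes, coloured by substrate class over all genes with at least 400 reads and reads in both libraries (grey, those within the axes); the solid line marks equal levels and the dashed lines 2-fold. Slc7a5 lies farthest from the line among the abundant members, at 247.7 CPM against 46.5.

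In the ion and metal class, the 6 genes at least 2-fold lower in Cd11c-active came from the zinc, phosphate, anion and proton exchange families. Slc39a11 (ZIP11), of the family that moves zinc and other metals into the cytosol, gave 286 Cd11c-active and 983 Cd11c-lineage reads. Its log2 ratio of -1.59 (interval -1.79 to -1.40 from counting and -3.95 to 0.27 widened) was the lowest of the 90 genes, and 1.0% of the 500 genes nearest in reads were lower. Slc9a7 (NHE7), a sodium and proton exchanger of the Golgi, had 149 and 482 reads with a ratio of -1.50. The phosphate importers Slc20a1 (PiT1) and Slc20a2 (PiT2) had 437 against 1124 and 200 against 501 reads, with ratios of -1.18 and -1.14. Slc26a6, an anion exchanger, had 130 and 342 reads with a ratio of -1.21. Slc39a4 (ZIP4), a zinc importer, had 183 and 418 reads with a ratio of -1.0, which fell short of 2-fold with larger prior counts. The widened intervals of all 6 included 0.

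The phosphate and sulfate carriers, a group of 4 formed after the values were seen, hold 3 of the 6 genes just named, so their direction restates that choice. Of all genes with at least 400 reads, 8.23% were at least 2-fold lower. The fourth, the sulfate carrier Slc26a2, had 1291 and 2374 reads with a ratio of -0.69 (widened -1.84 to 0.38). Together they gave 2058 and 4341 reads, or -0.89 on the log2 scale. Border macrophage and retinal neuron markers were also lower in Cd11c-active, and their part in these values was not tested.

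Zinc carriers had ratios on both sides of 0. Of the 10 Slc39 genes, 4 had a ratio above 0 (3 with scaling to library totals). Beyond 2-fold were 2 of the 10, both lower, near the 19.3% of all genes of such depth. With scaling to library totals it was 3 of the 10, all lower, against 9.02% of all such genes higher and 10.8% lower. The most abundant, Slc39a1 (ZIP1), had 2940 and 2380 reads with a ratio of 0.49 (widened -0.37 to 1.37). Slc39a7 (ZIP7), which releases zinc from the endoplasmic reticulum, had 428 and 931 reads with a ratio of -0.93 (-1.07 with scaling to library totals), and Slc39a6 had -0.74. Slc39a3, Slc39a8, Slc39a9, Slc39a10 and Slc39a14 lay between -0.11 and 0.29. In the Slc30 family, Slc30a1 (ZnT1), the zinc exporter of the plasma membrane, had 1318 and 888 reads with a ratio of 0.76 (widened -0.49 to 2.07). Slc30a4 was at 0.63 and Slc30a9 at 0.59, whereas the secretory pathway carriers Slc30a5 and Slc30a7 were at -0.62 and -0.41. The copper carrier Slc31a1 (CTR1) was at 0.34 and its relative Slc31a2 at 0.90, the highest ratio of the class, with 368 and 224 reads. Slc11a2 (DMT1), the importer of ferrous iron, had 572 and 741 reads with a ratio of -0.19.

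The carriers of sodium, potassium, chloride and bicarbonate described next were less than 2-fold apart. Slc12a2 (NKCC1), the gene with the most reads of the 90, had 7148 and 11130 reads with a ratio of -0.45 (widened -1.05 to 0.13). For the sum of the class the ratio was -0.16 with it and -0.08 without, and with it -0.30 with scaling to library totals. The interval of Slc12a2 excluded 0, at -1.19 to -0.004, with scaling to library totals. Slc12a9 had 3046 and 3454 reads with a ratio of 0.01, which was -0.13 with scaling to library totals and -0.28 after removal of the trend with length and GC content. Slc12a7 was at 0.48 and Slc12a4 at -0.15. The sodium and calcium exchanger Slc8a1 (NCX1) had 4055 and 5282 reads with a ratio of -0.19, which was 0.40 after removal of the trend with length and GC content.

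The potassium-dependent exchanger Slc24a3 had 388 and 798 reads with a ratio of -0.85. The proton exchangers Slc9a8 and Slc9a9 were at 0.38 and -0.63. Of the bicarbonate carriers, Slc4a2 was at 0.70 and Slc4a7 at -0.11. The magnesium carrier Slc41a1 was at 0.32. The adaptor Slc4a1ap, no transporter, had 736 and 455 reads with a ratio of 0.88, and the scaffold Slc9a3r1 was at 0.49.

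**Figure D5:**
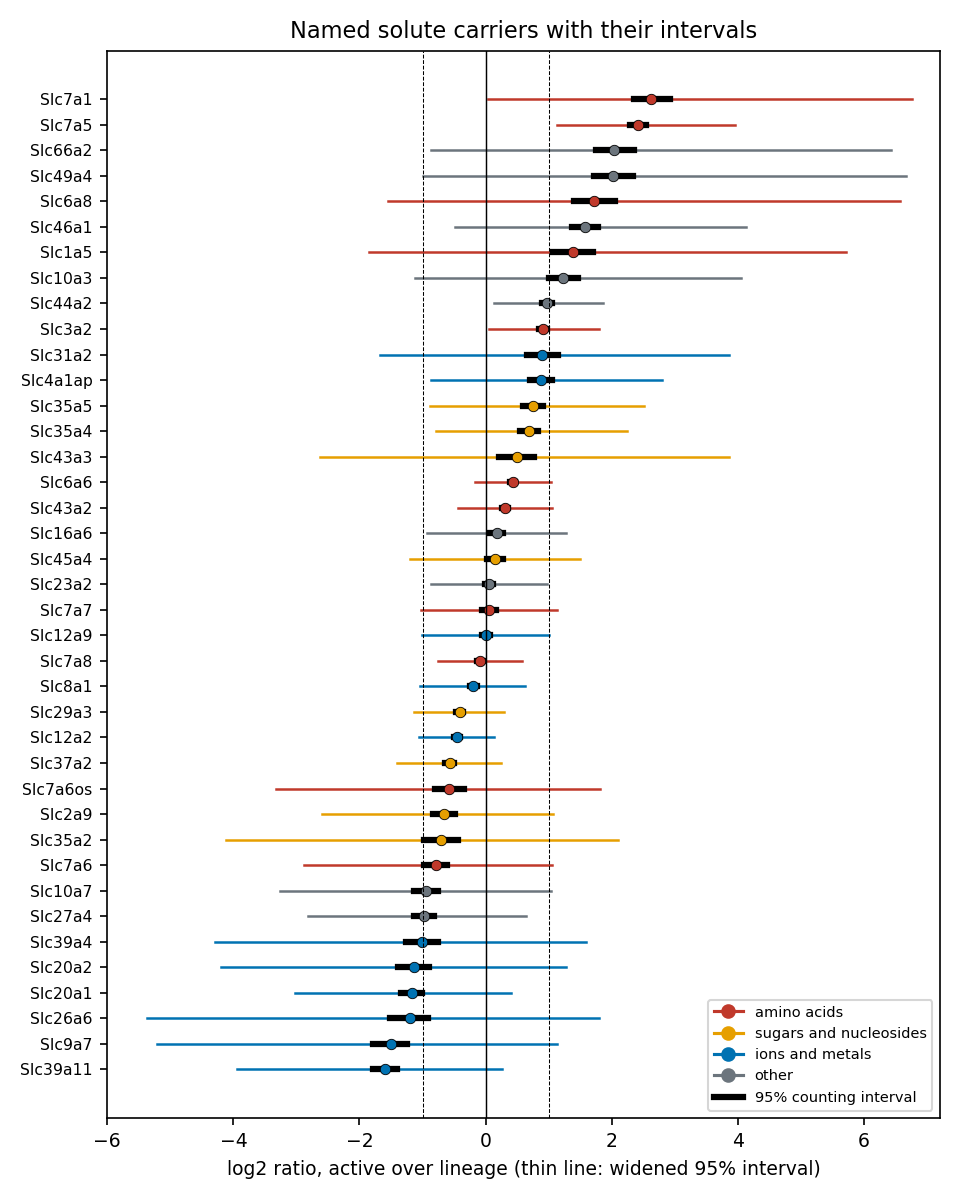
Log2 ratio of Cd11c-active over Cd11c-lineage (x axis) for the 39 genes chosen by the naming rule (y axis, ordered by ratio), with the 95% counting interval (black) and the widened 95% interval (thin line, coloured by class). The widened intervals of Slc7a1, Slc7a5, Slc44a2 and Slc3a2 lie above 0, and those of the other 35 include it.

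The other carriers held 4 genes at least 2-fold higher in Cd11c-active. Slc66a2 had 427 and 118 reads with a ratio of 2.04 (widened -0.86 to 6.43). Slc46a1 (PCFT), the proton-coupled folate importer, had 687 and 262 reads with a ratio of 1.58 (widened -0.49 to 4.13). Slc10a3 had 478 and 232 reads with a ratio of 1.23, and Slc49a4 is given above. The choline transporter-like gene Slc44a2 was just under 2-fold, with 3653 and 2114 reads with a ratio of 0.98 (widened 0.13 to 1.85, and -0.003 to 1.72 with scaling to library totals). After removal of the trend with length and GC content it passed 2-fold (1.03). Its relative Slc44a1, with 1234 and 1233 reads, was at 0.19.

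The vitamin C carrier Slc23a2 had 3643 and 3981 reads with a ratio of 0.06 (-0.08 with scaling to library totals), and Slc16a6 of the monocarboxylate family had 1671 and 1686 reads with a ratio of 0.17. The fatty acid transport proteins went apart: Slc27a1 had 662 and 470 reads (0.68) and Slc27a4 had 446 and 997 (-0.97). Slc10a7 had 312 and 683 reads with a ratio of -0.94. With scaling to library totals Slc27a4 and Slc10a7 passed 2-fold, at -1.11 and -1.08. The acetyl-CoA carrier Slc33a1 was at 0.66, the lipocalin receptor Slc22a17 at 0.41 and the monocarboxylate carrier Slc16a7 at -0.47. Summed, these 15 genes gave 15638 and 14011 reads, with a ratio of 0.35 (0.21 with scaling to library totals), and 0.44 without Slc23a2.

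Genes that act with these carriers were given by lists. Of 17 measured genes of the ATF4 amino acid response, which induces amino acid carriers when amino acids are short, 2 were at least 2-fold higher and 3 lower, with a median of -0.10. The higher ones were Cebpb (892 and 349 reads, ratio 1.54, widened -0.25 to 3.67) and Stc2 (49 and 0 reads). The lower ones were Asns, asparagine synthetase (18 and 86 reads), Vldlr (0 and 55) and Eif4ebp1 (0 and 32). Of 19 genes of amino acid sensing by mTORC1, 4 were higher and 2 lower, with a median of 0.19. Those higher were Nprl3 (357 and 114 reads), Castor1 (217 and 103), Mlst8 (175 and 52) and Rragd (89 and 4). Those lower were Nprl2 (54 and 140) and Lamtor5 (162 and 389). These shares, 29.4% and 31.6%, compare with 44.9% of all genes with at least 20 reads that were 2-fold apart, 23.3% higher and 21.6% lower.

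Of 11 genes of metal handling outside the carriers, 4 were higher and 1 lower (45.5%, close to the 44.9% of all genes with at least 20 reads), with a median of 0.70. Fth1, the ferritin heavy chain that stores iron, had 9029 and 4808 reads with a ratio of 1.10 (widened 0.41 to 1.81). Mt2, a metallothionein, had 292 and 164 reads, Ccs, the copper chaperone of superoxide dismutase, 445 and 148, and Steap3, a ferrireductase, 133 and 0. Commd1, a copper regulator, had 113 and 323. Mt1, a metallothionein with more reads than Mt2, had 1226 and 1349 with a ratio of 0.05. Of the 11 genes, Fth1 alone had a widened interval that excluded 0. Of 8 ion pumps 1 was lower, Atp1b1 with 1 and 48 reads, and of 8 measured Golgi glycosylation genes 1 was lower, St3gal4 with 0 and 86 reads. The share of each of these 2 lists was 12.5%, against the same 44.9%. Their medians were -0.25 and 0.22. With 0 counts set to the floor of 3 reads per library, the medians of the 5 lists were -0.10, 0.19, 0.71, -0.25 and 0.22.

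Over the 90 genes, Spearman's rho of the ratio with transcript length was -0.02 and with GC content 0.06, where genes of the same 2 libraries are not independent replicates. Over 7270 genes with at least 400 reads these values were -0.20 and 0.18.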

How the data were processed

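RNA of sorted cells was depleted of ribosomal RNA and made into stranded libraries, per the labels' protocols. The authors deposited raw counts per gene as whole numbers. Their table also holds a log2 fold change and an average level as log2 CPM, deposited by the authors per the file headers. The submitters' processing notes name cutadapt 3.5, STAR 2.7.9a, featureCounts 1.6.3, edgeR 4.0.16 and build GRCm39; the annotation and strand setting are not given in the sources used here. No listed gene had fewer than 6 reads in all.

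TMM factors (0.954 for Cd11c-active, 1.05 for Cd11c-lineage) came from edgeR 4.0.16 in R 4.3.3. The log2 ratio used reads plus 0.5, with exact Clopper-Pearson 95% intervals, in Python 3.11.15 with scipy 1.17.1. Widened intervals divided reads by the overdispersion of the read total's band, estimated over all genes. With 1 library per group neither edgeR's quasi-likelihood test nor that of DESeq2 (1.42.0, used for size factors) could be fitted, and no p-value is given. A gene counted as apart at 2-fold. A count of 0 allows 3 reads, or 0.243 and 0.214 CPM. Without molecular identifiers, reads cannot be taken as separate molecules, and counting intervals cover counting error only. Lengths came from GENCODE M21 (99.7% of tested genes). The procedure was also run on simulated libraries drawn with the same overdispersion for all genes. In these data it differed with read total, so that run does not check the intervals given here. Members, lists and the overdispersion were chosen with earlier results of these data known. Named by rule were all members 2-fold apart, per class the 3 with most reads and the 2 highest and 2 lowest ratios, Slc3a2 with its light chains, the members nearest the minimum, and list genes 2-fold apart; most other members were named as well, and a few are not reported here.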

Additional observations from a re-analysis of the deposited data

How the results depend on the processing

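No paired analysis was possible because each group has 1 library. The 21 summary results were recomputed under 15 alternatives, with 307 values in all. The class sums were not recomputed with the trend in length and GC content removed or with the authors' deposited log2 fold change. Some alternatives cannot move some results (a fold threshold leaves a median as it is), so only the changes are given. TMM lies 0.14 above library totals on the log2 scale for the median of all genes with at least 400 reads. The ribosomal RNA gene Rn18s held 5.66% of the reads of genes with at least 20 reads. The TMM-scaled log2 ratio of the sum of those genes was 0.14 with it and 0.05 without. With library totals the widened interval was above 0 for 1 member and below 0 for 1, the other class had 2 genes 2-fold lower, and the summed ratios were 0.22 for amino acids, -0.35 for sugars and nucleosides, -0.30 for ions and metals and 0.21 for others. The authors' deposited log2 fold change gave the same 1, 1 and 2. With 1 overdispersion for all genes 5 members were above 0 and 1 below, and the share of all genes was not computed for this setting. With at least 200 reads, 1 amino acid and 1 sugar gene were 2-fold lower and 1 ion gene higher. With at least 800 reads, 2 members were higher (1 amino acid, 1 other) and 2 lower (both ions and metals), and the sum of the others was 0.27. With no minimum, 29 members were higher (amino acids 9, sugars and nucleosides 3, ions and metals 4, others 13) and 31 lower (9, 2, 15 and 5). At a fold of 1.5, 23 were higher (7, 3, 6 and 7 in that order) and 17 lower (1, 2, 12 and 2). The share of all genes beyond 1.5-fold was not computed, so these counts cannot be set against it. With the trend in length and GC content removed, 2 sugar genes were higher and 1 other gene lower. Without the 3 genes that encode no transporter, an alternative chosen after the data were seen, the ion and metal sum was -0.19. Under the 8 alternatives that can move a single ratio, 292 of 312 values of the 39 named genes kept their direction and side of 2-fold, and no gene beyond 2-fold changed sign. Read totals limit the precision: from 400 to under 800 reads the robust SD of the ratio over genes was 1.14, so a 2-fold difference there could not be told from the spread between genes.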
